A study of Caenorhabditis elegans with 4 samples.

Results

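Chromosome IV of Caenorhabditis elegans carried 1724 of the 10159 BLMP-1 peaks in a list made from ChIP-seq of young larvae. They were taken by chromosome name alone, so no measured value chose them. Chromatin immunoprecipitation (ChIP) recovers the DNA that a protein is crosslinked to, and sequencing places that DNA on the genome. The larvae were fed hermaphrodites of the first larval stage (L1), kept at 20 °C, from strain OP109. It carries the allele ed3 of unc-119 on chromosome III and the transgene wgIs109, which joins blmp-1::TY1::EGFP::FLAG to a working copy, unc-119 (+), and was introduced by particle bombardment. Input DNA (2 libraries) and ChIP DNA (2 libraries, precipitated with polyclonal goat anti-eGFP) came from the same strain, so all carry these alleles. They form 2 extractions, and no label says whether these were separate cultures. What was mapped is the tagged protein, in whole larvae, so sites used in different tissues lie in the same list.

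BLMP-1 binds DNA through zinc fingers and is the worm counterpart of vertebrate PRDM1 (Blimp-1), a transcriptional repressor. It acts in the timing of larval development, and the F-box protein DRE-1 directs its degradation. The autosomes of C. elegans have no single centromere, and each has a central part rich in conserved genes between arms that recombine more and hold more repeats. Chromosome IV is also known for broad clusters of the small genes that make piRNAs (21U-RNAs) of the germline. The positions of genes and of those clusters were not compared with the peaks, because no genome or annotation of the peaks' build, WormBase WS180, was used here. For the same reason peaks are named by coordinate and no sequence is shown.

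The list gives 1 start, end and q value for each peak over all libraries and nothing per library, so depth is unknown, replicate error could not be computed and no difference was tested. In its place, values of IV are set beside those of the other 4 autosomes (I, II, III and V), mostly as their lowest and highest. Ranks that the q values imply but the list does not hold number 13, and where those regions lie is unknown, so an empty stretch below is empty in this list only. By the inferred ranks, at least 12 of them stand above the strongest listed peak of IV. The lowest q values given below are therefore also the lowest of this list only.

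The peaks of IV ran from 49806 to 17474545, a span of 17.4 Mb, with 98.9 peaks per Mb. That density was the fourth of 5 autosomes, whose others ran from 78.4 on V to 119.9 on III. By number IV came first, since the others held 1638 to 1709, but it was second in 3 of 5 alternative lists, those of lower q and of peaks of at least 200 bp. Peaks covered 899525 bp of IV, which is 5.16% of its span, against 4.32% on V and 6.17% on III.

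Density differed between the parts of IV. The left arm, below 0.25 of the span, held 388 peaks or 89.1 per Mb. The centre, from 0.25 to 0.75, held 1094 or 126 per Mb, and the right arm, above 0.75, held 242 or 55.6 per Mb. The centre thus had 63.5% of the peaks (95% exact binomial interval 61.1 to 65.7, which covers counting error only and treats peaks as independent). Its density was 1.74 times that of both arms together. The same share was 62.1% on I, 62.2% on III, 66.6% on II and 70.2% on V, so the central share of IV lay inside the range of the others.

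The arms of IV were unequal. The left arm was 1.60 times as dense as the right. On V this ratio was 1.48 and on I 1.19, while on III (0.768) and II (0.516) the right arm was the denser. IV therefore had the highest left-to-right ratio of the 5, although V came close and passed it among peaks of at least 200 bp (1.58333 on V and 1.57798 on IV). The left arm of IV was the second densest left arm, behind I at 93.7 per Mb, and its right arm the fourth right arm, ahead of V at 37.7 and far behind III at 103 per Mb.

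**Figure D1:**
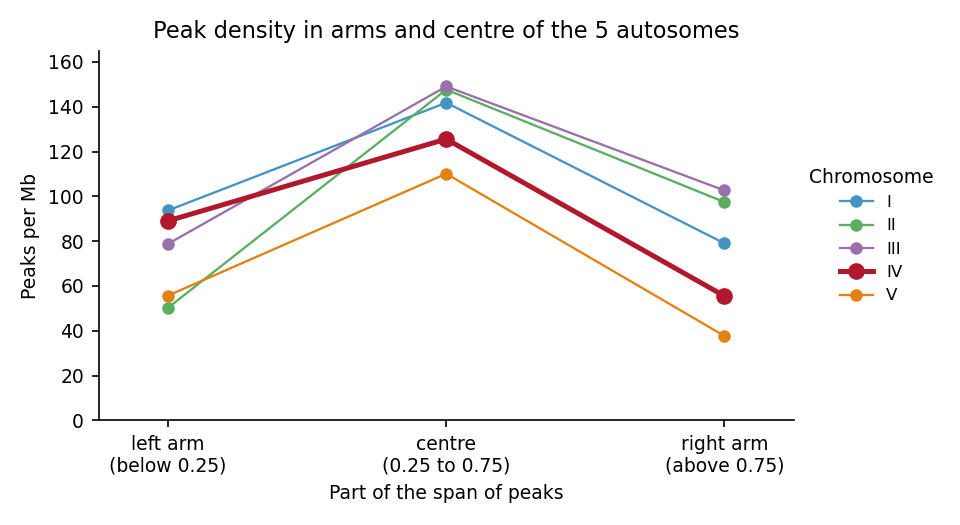
Peaks per Mb (vertical axis) in the left arm, the centre and the right arm of each autosome, 1 line per chromosome and IV drawn thick. IV is close to I on the left arm (89.1 and 93.7 per Mb) and falls between I and V in the centre and on the right arm, where it has 55.6 per Mb.

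In 20 equal bins of the span, IV lay inside the range of the other autosomes in 13, above it in 2 and below it in 5. Both bins above lay on the left arm, from 0.05 to 0.15 of the span, with 84.9 and 86.1 peaks per Mb. The others ran from 60.3 to 82.8 in the first of these bins, so that IV was just above them, and from 17.0 to 72.1 in the second. The inner left part of the centre was thin. It had 83.8 per Mb from 0.25 to 0.3 and 81.5 from 0.35 to 0.4, where the others ran from 92.9 to 149.8 and from 90.9 to 148. Between those bins density reached 124 per Mb. The maximum of IV, 162 per Mb, lay from 0.45 to 0.5. Towards the right end density declined through 47.1 and 41.3 to 39.0 per Mb in the last bin, where the others ran from 50.7 to 115.

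**Figure D2:**
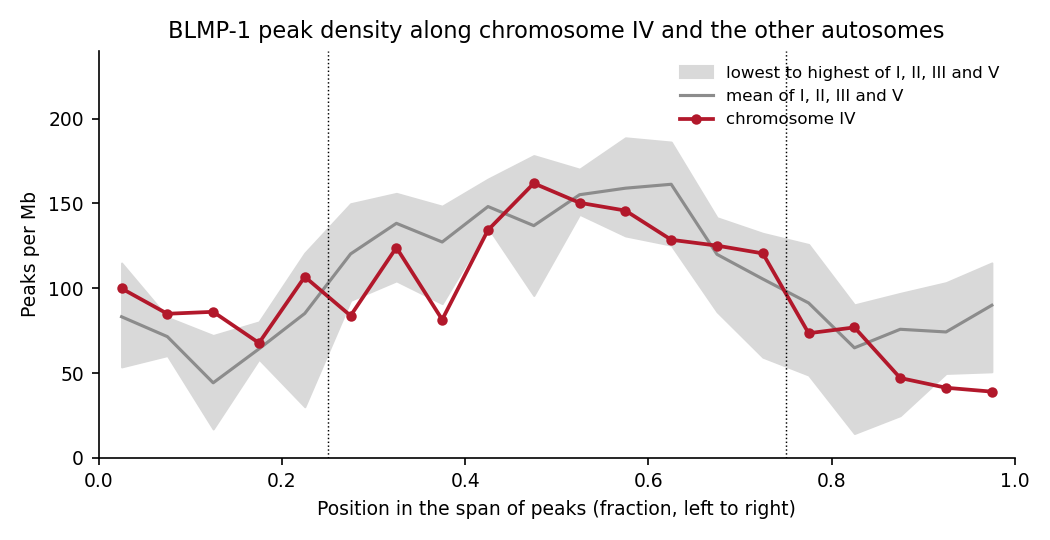
Peaks per Mb in 20 bins along the span of peaks, with chromosome IV in red, the mean of I, II, III and V in grey and their lowest to highest value as a band. Dotted lines mark 0.25 and 0.75 of the span. IV leaves the band upward between 0.05 and 0.15 and downward in bins between 0.25 and 0.45 and beyond 0.9, ending at 39.0 per Mb.

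Windows of 500 kb gave much the same picture in coordinates, except at the right end. The 34 whole windows of IV held a median of 47.5 peaks. The densest, with 84 peaks each, ran from 5549806 to 6049805, from 8049806 to 8549805 and from 9549806 to 10049805, and all 10 windows with over 60 peaks had their midpoint in the centre. The first of these dense windows stood between thin ones. The window before it held 41 peaks and the window after it 34, while its own peaks covered 9.12% of its length. A grid moved by 250 kb gave a single densest window, from 7799806 to 8299805, with 98 peaks. The sparsest windows were those from 16549806 to 17049805 with 6 peaks, from 15049806 to 15549805 with 14 and from 15549806 to 16049805 with 22. On the moved grid the sparsest window held 13 peaks, from 16799806 to 17299805. Of the 6 windows with under 30 peaks, 4 were on the right arm, 1 on the left arm and 1 in the centre. Beyond 17049806 the last 424740 bp of the span held 28 peaks again, or 65.9 per Mb.

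Gaps between neighbouring peaks had a median of 3320 bp on IV (quartiles 984 and 10941.5 bp), and the medians of the others ran from 2938.5 to 4013 bp. The median was 2902 bp in the centre, 3941.5 bp on the left arm and 5376 bp on the right. Long gaps, of 50 kb or more, numbered 53 and added up to 4.28 Mb or 24.6% of the span, second to V (30.2%). They took up 51.7% of the right arm, 24.3% of the left arm and 11.1% of the centre. The right arm of V was equally interrupted (51.8%), and those of I, II and III were less so (11.8% to 24.3%).

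The longest gap of IV lay not on an arm but just inside the centre, from 4858808 to 5073837. At 215 kb it was the longest gap of any autosomal centre in the list, where the others reached 70.3 to 119 kb. The gap of 117 kb from 5395197 to 5512290 is close by, and the dense window from 5549806 follows it. A gap of 141 kb from 12854970 to 12996225 lay at the other edge of the centre. Of the 10 longest gaps 6 were on the right arm. They ran from 16193072 to 16354338 (161 kb), 15702372 to 15852960 (151 kb), 15139585 to 15275452 (136 kb), 16025397 to 16147655 (122 kb), 16657118 to 16775030 (118 kb) and 13578496 to 13682599 (104 kb). The left arm had 1, from 2495534 to 2599420, also of 104 kb. Windows of 100 kb without a peak numbered 4 on IV, 10 on V, 1 each on II and III and 0 on I.

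**Figure D3:**
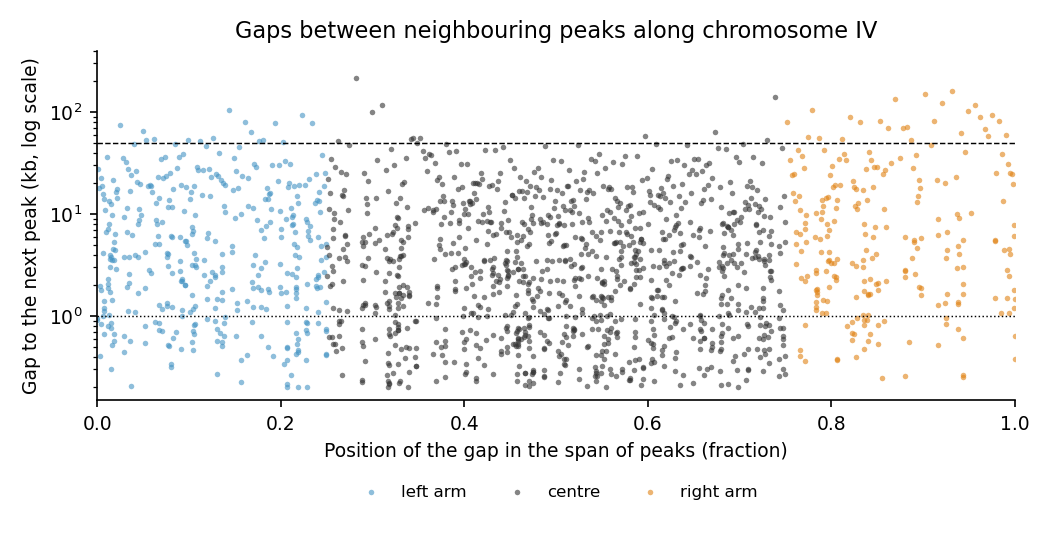
Each point is a gap between neighbouring peaks of chromosome IV, placed by its position in the span of peaks (horizontal axis, fraction) and its length (vertical axis, kb, log scale). The dashed line marks 50 kb and the dotted line 1 kb. Points above the dashed line take up 51.7% of the right arm, and the highest point, at 215 kb, lies just inside the centre.

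The outer right arm, beyond 0.85 of the span, was looked at after its low density had been seen. It had 111 peaks or 42.5 per Mb on IV. The same stretch had 41.8 per Mb on V, 76.1 on I, 97.8 on II and 104 on III, so IV and V had close values. Long gaps filled 66.3% of it on IV and 43.3% on V. That difference depends on the edge chosen. Over the whole right arm the shares were 51.7% and 51.8%, and the thinnest bin of V (14.4 per Mb) lay just before the edge, from 0.8 to 0.85. The peaks of IV beyond 0.85 were not narrow, with a median width of 453 bp, and 1 of them had a q under 1e-100. Their median −log10 q was 6.46, and it was 9.91 over all of IV. How much of this stretch the reads could cover was not tested, since the list gives no reads outside peaks.

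The strongest evidence on IV, by the authors' q value, was spread over all 3 parts. The q value comes from PeakSeq, which compares ChIP reads with input reads in a region, and it grows more extreme with read number as well as with enrichment. Behind it lie tag (read) counts that could be inferred from the list, as described with the processing, for all 1724 peaks of IV. The lowest q, 4.29e-218, belonged to a peak of 1020 bp on the right arm from 14089251 to 14090270, with 1658 inferred ChIP tags and 313 scaled input tags. A second strong peak, from 14085564 to 14086841 (q = 1.99e-176, 1309 and 239 tags), lay 2409 bp to its left, so that this sparse arm held the first and the seventh peak of the chromosome close to each other. The second lowest q, 1.31e-208, was at 9533914 to 9535546 in the centre (1648 ChIP and 328 input tags). The third, 5.90e-206, was a broad peak of 3019 bp from 8526740 to 8529758, with 2802 and 954 tags. Its ratio of 2.94 was well below the 5.30 and 5.02 of the first and second, and its many tags go with its width.

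Of the 25 peaks of lowest q on IV, 17 lay in the centre, 5 on the left arm and 3 on the right. All peaks of IV were split in much the same way, with 63.5% in the centre, 22.5% on the left arm and 14.04% on the right. The widths of the 25 ran from 557 to 3210 bp (median 1278 bp), and 18 of them had a neighbour within 1 kb. Of all peaks of IV 41.3% had one. On the left arm the first was the peak from 682209 to 683568 (q = 1.47e-177), followed by 1866736 to 1868448 (2.15e-165) and 3231659 to 3234868 (3.93e-160). The left arm also held the peak from 2809159 to 2809765, which had no other peak within 23701 bp on either side and yet 837 ChIP against 115 input tags. The fifth, from 4400682 to 4401522, lay at the very edge of the centre. The remaining peak of the right arm ran from 14385065 to 14385645 with q = 4.64e-135.

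In the centre, 7 of the 17 lay between 7835899 and 8531715, a stretch chosen after the values were seen. Beside the third peak of the chromosome, they were 7835899 to 7836901 (q = 2.47e-179), 8009229 to 8010330 (1.95e-169), 8172802 to 8173975 (2.76e-142), 8232090 to 8234868 (5.18e-157), 8312895 to 8314462 (3.41e-136) and 8530017 to 8531715 (4.82e-135). This stretch is also dense in peaks of any strength. The 500 kb windows that hold it, from 7549806 and from 8049806, had 82 and 84 peaks, where the median window of IV had 47.5. The peak from 8530017 lay only 258 bp from the third peak. Among the 25, the highest ratio of inferred ChIP to input tags was that of the peak from 8172802, at 7.75 (860 and 111 tags), and the lowest that of the 3210 bp peak from 3231659, at 2.24. Farther right lay 9512798 to 9514119, 9677174 to 9678095, 10251268 to 10253195, 11490872 to 11491922, 11699682 to 11700690 and 11883340 to 11884050. Farther left lay 5703897 to 5704453, 5939003 to 5941700 and 6656668 to 6658162.

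Across IV, 48 peaks (2.78%) had a q under 1e-100, against 2.75% on V and 3.61% on II, and 204 (11.8%) had a q over 0.001, where the others ran from 8.84% to 12.5%. The central share was higher among peaks of low q. It was 66.7% of the 48 (exact binomial interval 51.6 to 79.6) and 68.6% of the 140 with q from 1e-100 to 1e-50. It was 52.9% (45.8 to 59.9) of the 204 with q over 0.001. The interval of these 204 overlaps that of the 48 peaks but not that of the 140 (60.2 to 76.1). Of the peaks with q under 1e-100 on the other autosomes, 66.7% were central on I, 68.9% on II, 55.3% on III and 97.8% on V. The right arm of IV had 8 such peaks, 3.31% of its peaks, and so did its left arm (2.06%).

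Peaks of IV had a median width of 416 bp (quartiles 295 and 617 bp), and the medians of the others ran from 400 bp on I to 435.5 bp on V. The median was 424 bp on the left arm, 408 bp in the centre and 434 bp on the right arm. Peaks of at least 1200 bp numbered 103 or 5.97%, slightly more than on the others (4.85% to 5.91%). Of these 64.1% were central, close to the share of all peaks. Extreme widths were missing: the widest peak of IV measured 3732 bp, and the widest of each other autosome 6023 bp or more, up to 20797 bp on I. At the other end, 37 peaks of IV were at most 50 bp wide.

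Great width did not go with a high ratio of ChIP to input. The widest peaks were 13027767 to 13031498 (3732 bp, ratio 1.36), 16397830 to 16401547 (3718 bp, 1.46), 8066302 to 8069808 (3507 bp, 1.45) and the peak from 3231659 (2.24). Over the 10 widest the ratio ran from 1.35 to 2.94, and 4 of the 10 had a q under 1e-100. The others of the 10 were the peaks from 8526740, 8232090 and 5939003 given above, 2218947 to 2221888 (1.57), 4404608 to 4407384 (1.35) and 14032329 to 14035100 (1.44). By width class the median ratio was 2.16 under 200 bp, 2.11 from 200 to under 400 bp, 2.247 from 400 to under 800 bp, 2.07 from 800 to under 1200 bp and 1.94 at 1200 bp or more. Median −log10 q rose along the same classes from 3.46 to 38.6. Because the list ends at a q of 0.01, a peak with few tags can be in it only with a high ratio, which sets the lower edge of the narrow peaks.

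The 5 peaks of highest ratio among those of at least 200 bp measured 341 to 1174 bp. The first ran from 13682600 to 13683235, 636 bp on the right arm, with 600 ChIP and 57 input tags, a ratio of 10.5 (q = 1.15e-113). It is the peak that ends the 104 kb gap from 13578496. The next were 12572557 to 12572965 (ratio 8, 392 and 49 tags), the peak from 8172802 (7.75), 8993483 to 8993823 (7.51) and 16015683 to 16016179 (7.51), the last again on the outer right arm. All 5 were in the centre or on the right arm.

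**Figure D4:**
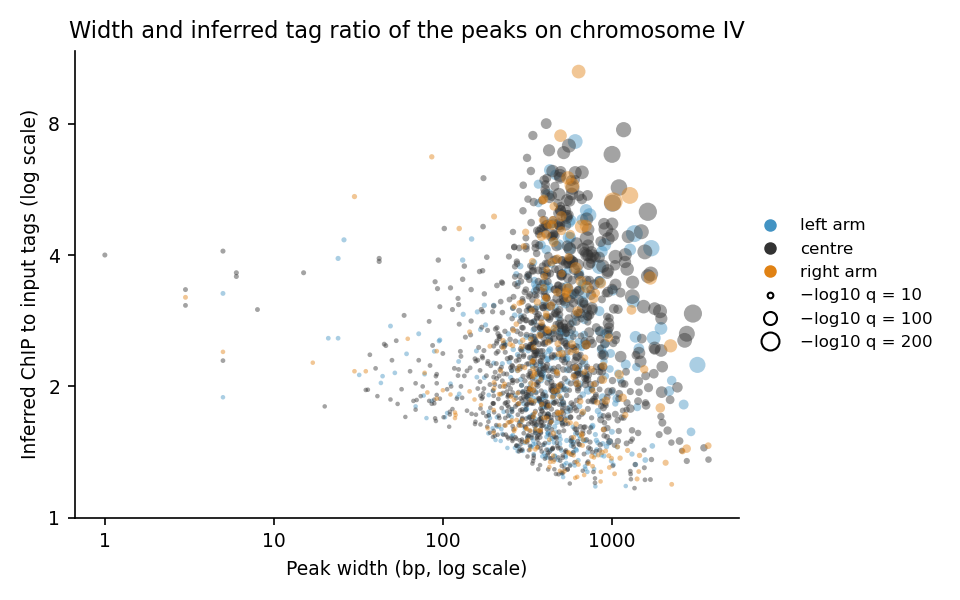
Each point is a peak of chromosome IV, by width (horizontal axis, bp, log scale) and ratio of inferred ChIP to scaled input tags (vertical axis, log scale), coloured by part of the chromosome and sized by −log10 q. The highest point is the right-arm peak of 636 bp with a ratio of 10.5, and the 10 widest peaks stay at or below a ratio of 2.94.

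Taken over the whole chromosome, the median inferred ratio was higher on IV than on any other autosome, by a small margin. The median was 2.15 on IV (quartiles 1.70 and 2.93), 2.11 on I, 2.06 on II, 2.03 on III and 2.02 on V. A ratio of at least 3 was reached by 411 peaks of IV (23.8%) and by 15.6% on V to 23.0% on I. Input was lower on IV than on any other autosome. In peaks of at least 200 bp, IV had a median of 277 input tags per kb, and the others 307 to 329. Its ChIP tags per kb were also the fewest (611, against 635 to 704). In the centre of IV, input was 273 per kb where the other centres had 320 to 333. The left arm, at 298, lay inside the range of the other left arms (273 to 333). So did the right arm, at 260, among the other right arms (240 to 359). The part of input in the higher ratio was not tested. Within IV the median ratio was 2.21 in the centre, 2.06 on the left arm and 2.02 on the right. Only the centre was above its counterparts, which had 2.04 to 2.15. The left arm of III (2.12) and the right arm of I (2.08) were above those of IV.

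Many peaks stood close together. Of the 1723 gaps on IV, 437 (25.4%) were under 1 kb, inside the range of the others (24.2% to 28.2%), and the smallest was 200 bp. These short gaps made up 29.5% of the gaps in the centre, 20.9% on the left arm and 14.05% on the right. The last was the lowest of the 5 right arms, where the others had 17.3% to 23.7%. Joining peaks under 1 kb apart left 1012 peaks alone (58.7%), 356 in groups of 2, 273 in groups of 3 or 4 and 83 (4.81%) in 14 chains of 5 or more. III also had 14 such chains, with 4.85% of its peaks, and I, II and V had 9 to 12, with 2.98% to 4.52%.

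Of the 14 chains of IV, 11 lay in the centre and 3 on the left arm. The right arm had 0 of its 242 peaks in a chain, and the right arms of I, II and V had 5 peaks each in chains and that of III 10. An arm without chains was not particular to IV, as the left arm of V also had 0 of its 291 peaks in one. As a chain has at least 5 peaks, 0 and 5 differ by a single chain. The longest chains had 7 peaks each and ran from 3647469 to 3654583, 6092199 to 6100376, 8238745 to 8243516 and 10609881 to 10617444. They differed in make-up. Peaks filled 59.6% of the 8.18 kb from 6092199, whose lowest q was 3.62e-105, but 31.5% of the 4.77 kb from 8238745, whose widest peak had 567 bp and whose lowest q was 1.62e-41.

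Chains of 6 peaks ran from 5561208 to 5565472, 6651424 to 6658162, 8315917 to 8320125, 12396716 to 12404572 and 13077247 to 13083426. Their lowest q values lay between 2.53e-137, in the chain from 6651424, and 8.22e-49, in the chain from 13077247. The chains of 5 that come first along the chromosome ran from 3866021 to 3870678, 4395987 to 4403225 and 8040603 to 8045010. That from 8525964 to 8533126 holds the third strongest peak of IV and is 82.0% covered by peaks, the highest share among the 14, followed by 68.3% in the chain from 4395987. The last chain ran from 11565924 to 11572534. Whether a chain is 1 bound region split by the peak caller or several sites was not tested.

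Peaks in company had lower q values and higher ratios than peaks alone. Median −log10 q on IV was 8.34 for single peaks, 10.8 in groups of 2, 15.5 in groups of 3 or 4 and 20.8 in chains of 5 or more. The median ratio went from 2.02 through 2.22 and 2.47 to 2.51, and median width from 404.5 bp to 528 bp. A q under 1e-100 was found in 12 of the single peaks (1.19%), 7 of those in groups of 2 (1.97%), 21 in groups of 3 or 4 (7.69%) and 8 in chains (9.64%). For groups of 3 or 4 this share was above that of each other autosome (2.06% to 5.93%), and for single peaks and groups of 2 it was below each of them.

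**Figure D5:**
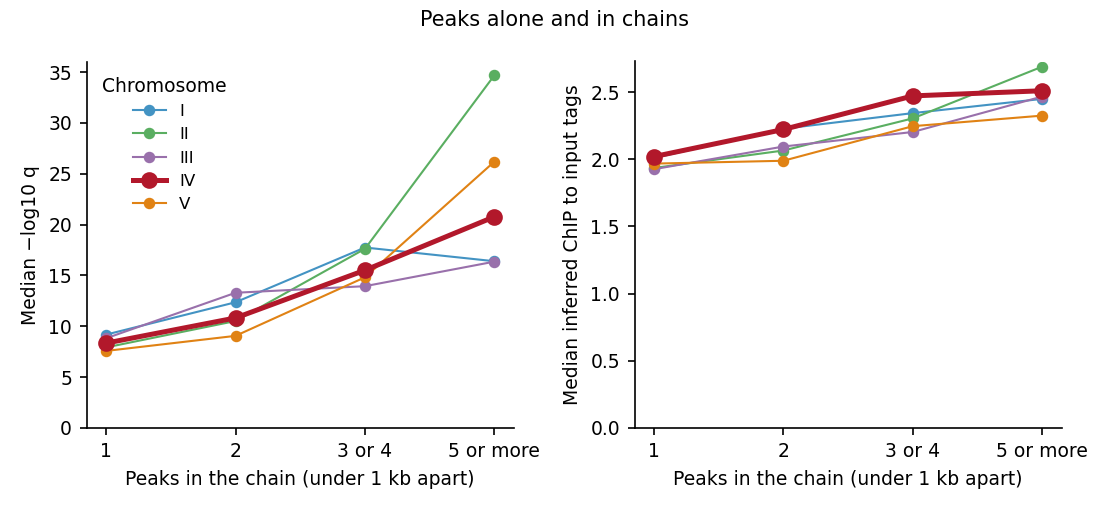
Median −log10 q (left) and median ratio of inferred ChIP to input tags (right) of peaks alone or in groups of 2, 3 or 4, and 5 or more peaks under 1 kb apart, 1 line per autosome and IV drawn thick. On IV the medians go from 8.34 to 20.8 on the left and from 2.02 to 2.51 on the right.

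Isolated peaks were the counterpart. On IV 150 peaks (8.70%) had no other within 10 kb and 49 (2.84%) none within 20 kb, where the other autosomes ran from 7.04% to 12.5% and from 1.88% to 5.92%. By part, 17.4% of the right-arm peaks, 12.1% of the left-arm peaks and 5.58% of the central peaks lacked a neighbour within 10 kb. The left-arm share was the lowest of the 5 left arms, where the others had 15.4% to 22.3%. The 5 most isolated peaks were all on the right arm, and 4 of them followed each other: 16775031 to 16776585, 88607 bp from its nearer neighbour, then 16865193 to 16865962, 16934830 to 16934834 and 16993046 to 16993353. The first had 753 ChIP and 344 input tags (q = 5.11e-35), whereas the other three had q values of 4.94e-04 to 0.00631. The fifth was the peak of 30 bp from 13578466, which stands at the left edge of a 104 kb gap.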

How the data were processed

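Per the labels' protocols, 2% formaldehyde fixed the worms and 100 mM Tris stopped the reaction. Their lysis text names embryos, although the stage is given as fed L1. The authors deposited 1 list of peaks named as combined, made with PeakSeq on WormBase WS180 per the file headers. Its score is a q-value (a corrected p-value), as deposited by the authors, up to 0.01. Aligner, read filters and pooling are not given in the sources used here. Read depth is unknown, and filters on repeats could empty stretches of the list.

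The members were set by chromosome name alone, but that choice and the lists were made with earlier results of these data known. The span runs from the first peak's start to the last peak's end, and a peak belongs to an arm or window by its midpoint. Named were the 25 peaks of lowest q, the 10 widest, the 5 of highest ratio at 200 bp or more, the 5 most isolated, the 10 longest gaps, the 3 densest and 3 sparsest windows and up to 12 chains of 5 or more. The last 2 of the 14 chains were added after their values were seen. No test was run. Intervals are exact binomial (Clopper-Pearson, 95%) and cover counting error only.

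Tag counts were inferred, not read from a column. Each q was read as the binomial tail of ChIP against scaled input tags at even chance, times a number of candidate regions, over rank. In a search, 16906 candidates and a rank offset of 12 matched 31 of 40 weak peaks, and the next best pair 0. With these, 10155 of 10159 peaks fitted exactly 1 pair of whole counts (relative tolerance 1e-11), 1 of them after raising its rank by 1, and so did all 1724 on IV. Functions were tested on simulated data. Alternatives restricted the list by q or width, joined close peaks and moved thresholds. Software was matplotlib 3.10.9, pandas 2.3.3, scipy 1.17.1 and numpy 2.4.6 under Python 3.11.15.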

Additional observations from a re-analysis of the deposited data

How the results depend on the processing

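Of 69 values recomputed on IV, 28 stayed close and 41 moved. A change of direction was not among the labels used. Close meant inside the 95% interval of the reported value for the central share, the share of short gaps, the centre to arm ratio and the medians. For densities, chains, windows and the share in long gaps it meant within 1.5 times. The centre was denser than the arms in each alternative list and with both other pairs of edges. Shorter lists lower counts and lengthen gaps by construction. With the 50% of all peaks of lowest q, IV had 49.0 peaks per Mb (left arm 41.3, right arm 23.4), a central share of 67.0%, a centre to arm ratio of 2.03, a median width of 527 bp, a median gap of 7185 bp, 18.2% of gaps under 1 kb, 3 chains and 47.4% of the span in long gaps. With the strongest 10% these were 9.64 peaks per Mb (8.03 and 3.90), 69.0%, 2.23, 724 bp, 56986 bp, 5.39%, 0 chains and 91.8%. With peaks of at least 200 bp, median width was 451.5 bp, median gap 3794 bp, short gaps 23.0% and median −log10 q 11.8. With the narrower 90% they were 391 bp, 3854 bp, 21.3% and 8.77, and 8 chains were left. Joining peaks under 500 bp apart gave 432 bp, 4160 bp, 15.5% and 1 chain. A centre from 0.33 to 0.67 held 45.2% and one from 0.2 to 0.8 held 72.6% of the peaks. Gaps under 500 bp made up 11.7% and under 2 kb 39.1%. Chains numbered 4 at a distance of 500 bp and 41 at 2 kb, and gaps of 75 kb or more took 15.2% of the span. On a grid moved by 250 kb the sparsest window held 13 peaks, from 16799806 to 17299805. Counts of chains and short gaps therefore depend on the chosen distance and on the list. No paired analysis was possible because all libraries went into 1 combined value per peak. Leaving out a replicate needs values per library and was not possible either. Depth per library is unknown, so how many weak sites were missed cannot be given.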

Other observations

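Peaks of IV that border an empty stretch had weaker evidence than the rest. The 100 peaks next to a gap of 50 kb or more had a median −log10 q of 6.04 and a median inferred ratio of ChIP to input of 1.82, and the other 1624 peaks of IV had 10.2 and 2.16. Their median width was about the same, 417.5 and 416 bp. A q over 0.001 was listed for 18 of the 100 (18.0%) and for 11.5% of the others. Bordering peaks had the lower median −log10 q on each of the other autosomes too, with 8.80 against 11.0 on I, 5.47 against 10.3 on II, 7.84 against 10.5 on III and 6.63 against 9.53 on V. On IV 2 of the bordering peaks had a q under 1e-100, 1 of them the peak from 13682600 with the highest ratio of the chromosome. Long gaps are commonest on the arms, where q is also higher, and the part of position in this difference was not tested.

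Neighbouring peaks of IV resembled each other little in strength. Across the 437 pairs under 1 kb apart, Spearman's rho was 0.0035 for −log10 q, 0.14 for width and 0.12 for the inferred ratio. On the other autosomes the same values for pairs under 1 kb apart ran from 0.0095 to 0.15, from 0.21 to 0.30 and from 0.15 to 0.25, so IV had the lowest of the 5 in each. Across the 823 pairs from 1 to under 10 kb apart rho on IV was 0.072, 0.161 and 0.145. The others ran there from -0.038 to 0.082, from 0.068 to 0.156 and from 0.036 to 0.132. At this distance IV thus lay inside their range for −log10 q and above it for width and ratio. All pairs come from 1 list and adjacent pairs share a peak, so these values are descriptions.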
